A study of Homo sapiens with 8 samples.

Results

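The genes described here are nuclear genes of the mitochondrial respiratory chain, taken by symbol from count tables of 23710 genes. The symbols chosen were the NDUFA, NDUFB, NDUFC, NDUFS and NDUFV series with a number, NDUFAB1, SDHA to SDHD, and all those that begin with UQCR, with COX and a digit from 4 to 8, or with ATP5. This gave 89 genes, of which 38 belong to complex I, 4 to complex II, 10 to complex III, 17 to complex IV and 20 to complex V. The choice followed the symbols alone, but it was made with earlier results of these data known. Of the 89, 82 encode a subunit and 7 do not. UQCRHL, UQCRBP1, ATP5L2 and ATP5EP2 are copies or pseudogenes, and ATP5J2-PTCD1 is a read-through symbol. ATP5S and ATP5SL share the name of the family but encode the factors now called DMAC2L and DMAC2. NDUFA4 was placed with complex I by its symbol, although its current symbol, COXFA4, puts it in complex IV. CYC1, which encodes cytochrome c1 of complex III, falls outside these symbols. The values of complex III leave it out, and it is described with the pathway lists.

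The RNA came from a lymphoblastoid cell line of human origin, that is, B lymphocytes immortalised with Epstein-Barr virus, kept in RPMI medium. The 4 groups were untreated control cells sampled before exposure, cells at 24 h of exposure to 5 µM hexavalent chromium, and cells at 3 days and at 7 days post treatment after the same exposure. Each group had 2 libraries, which the labels call biological replicates of a single line, so a p-value measures the spread between these libraries and not between people or lines. The labels count the days from treatment, whereas the series design counts them from the onset of exposure, and no unexposed cells of the later times were analysed here, so exposure and time in culture cannot be told apart.

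The respiratory chain passes electrons from food to oxygen and stores the energy as a proton gradient across the inner mitochondrial membrane. Complex I takes electrons from NADH and complex II takes them from succinate, which makes it part of the TCA cycle as well. Complex III hands them to cytochrome c, complex IV passes them to oxygen, and complex V, the ATP synthase, uses the gradient to make ATP. All but complex II also hold subunits made from mitochondrial DNA, which were not analysed here. Chromate is reduced inside cells, and mitochondria are among the sites where this happens.

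The libraries held 9478459 to 11110830 reads assigned to genes. Markers fixed for B cells were abundant, with 10 of 10 reaching 10 CPM (the reads of a gene scaled to TMM-adjusted library size) and a summed level of 2550 to 3668 CPM. Of the markers of other cells, 0 of 8 for T and NK cells, 1 of 7 for myeloid cells (ITGAM), 0 of 8 for stromal or epithelial cells and 0 of 6 for muscle reached that level, and all 6 erythroid markers had no count. Replicate 1 at 3 days and replicate 1 at 7 days stood apart from the other 6 libraries. Reads assigned to no feature made up 39.4% and 36.5% of their tables against 44.4% to 51.5% elsewhere, and ambiguous reads 1.05% and 1.12% against 0.608% to 0.781%. The medians of complexes, modules and gene lists that rest on these libraries are given below with and without them.

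Nuclear respiratory genes are known to share a few promoter elements, those of the factors NRF1, GABP (an ETS factor), YY1 and Sp1. The RefSeq promoter table for GRCh38.p14, which holds 250 bases before and 50 bases after each start site, listed 68 of the 82 subunit genes. Both strands were searched for exact letters, and the same search ran over the 15843 protein-coding promoters in the table. The full NRF1 element, whose 10 letters are the capitals in the ATP5C1 window below, was present in 4 of 68 subunit promoters (5.88%) against 1.75% of all. The shorter TGCGCA, which shares most of its letters with that element but is not contained in it, was present in 29.4% against 10.8%. The GABP letters CCGGAAG were found in 27.9% against 14.2%, and the YY1 letters AAGATGGCG in 11.8% against 2.74%. The Sp1 letters GGGCGG stood at 57.4% against 58.5%, and the TATA letters TATAAA at 10.3% against 9.63%. In small counts, complex IV had 0 of 14 promoters with the full NRF1 element and 5 of 14 with the GABP letters, and complex I had 2 and 5 of 33. A match describes letters in a window and does not show that a factor binds there.

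The windows below show the elements in members of complexes I, II, IV and V, on the strand of the gene. Each holds 100 bases that lie upstream of the RefSeq start site. These run from -160 to -61 in SDHD, from -180 to -81 in NDUFB4 and from -100 to -1 in the other windows. The NRF1, GABP and YY1 letters on either strand are in capitals. Positions belong to GRCh38.p14, whereas the reads were processed with GRCh37, so no reads were placed on these positions. Fold changes are set beside the letters further below by gene symbol only. The windows of ATP5C1, SDHD and NDUFB4 were chosen for the NRF1 element, those of COX6A1, COX8A and COX5B for the GABP letters, and that of ATP5J for the YY1 letters. They are examples, as the GABP letters were present in 19 of 68 subunit promoters. The windows lie at chr10:7788077-7788176 (ATP5C1, plus strand), chr11:112086713-112086812 (SDHD, plus), chr3:120596156-120596255 (NDUFB4, plus), chr12:120438013-120438112 (COX6A1, plus), chr11:63974520-63974619 (COX8A, plus), chr2:97645962-97646061 (COX5B, plus) and chr21:25735055-25735154 (ATP5J, minus).
ATP5C1: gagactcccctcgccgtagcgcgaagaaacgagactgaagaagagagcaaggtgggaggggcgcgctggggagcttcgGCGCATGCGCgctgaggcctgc
SDHD: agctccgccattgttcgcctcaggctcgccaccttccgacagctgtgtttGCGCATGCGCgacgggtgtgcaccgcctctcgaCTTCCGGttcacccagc
NDUFB4: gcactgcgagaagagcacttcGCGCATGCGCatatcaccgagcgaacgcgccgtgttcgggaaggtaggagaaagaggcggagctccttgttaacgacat
COX6A1: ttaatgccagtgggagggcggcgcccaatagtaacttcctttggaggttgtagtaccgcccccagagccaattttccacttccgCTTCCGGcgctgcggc
COX8A: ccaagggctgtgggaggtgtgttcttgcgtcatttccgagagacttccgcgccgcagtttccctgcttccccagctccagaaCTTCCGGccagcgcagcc
COX5B: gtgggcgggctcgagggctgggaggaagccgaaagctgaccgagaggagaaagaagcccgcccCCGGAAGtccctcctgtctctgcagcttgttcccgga
ATP5J: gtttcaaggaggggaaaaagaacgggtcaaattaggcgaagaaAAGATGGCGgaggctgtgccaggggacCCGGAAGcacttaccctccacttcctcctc
In SDHD both NRF1 and GABP letters lay in the same window, and in ATP5J both YY1 and GABP letters did.

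A total of 77 members passed the count filter: all 38 of complex I, all 4 of complex II, 8 of complex III, 11 of complex IV and 16 of complex V. The counts and medians of complex V below include ATP5S and ATP5SL. The 12 that did not pass had from 0 to 46 reads summed over the 8 libraries. They were the 5 copies and read-through symbols above, the 6 tissue isoforms of complex IV, and ATP5E, the epsilon subunit of the ATP synthase, with 12 reads in all. ATP5E shares its exons with the read-through symbol SLMO2-ATP5E, which was listed at 0, and reads that overlap more than 1 entry can be left unassigned. The value of ATP5E, and likewise those of ATP5J2 and NDUFC2, which also have read-through symbols, are therefore uncertain.

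Levels differed widely among the members of a complex, least so in complex II. Per kilobase of GENCODE 29 transcript, the median level was 31.9 CPM per kb in complex I, 115.5 in complex II, 62.1 in complex III, 94.7 in complex IV and 68.6 in complex V, as means over the 8 libraries. The ratio of the highest to the lowest member was 116 in complex I, 105.5 in complex V, 18.4 in complex III, 11.5 in complex IV and 3.36 in complex II. The highest values belonged to the ATP synthase: ATP5G3, a c-ring gene, stood at 832 CPM per kb, the catalytic beta subunit ATP5B at 555 and the alpha subunit ATP5A1 at 404.5. The lowest were in complex I, where the core subunit NDUFS7 stood at 3.01, and the accessory subunits NDUFV3 and NDUFA11 at 3.04 and 3.56. The length is a median over the transcripts of a gene and was not matched to the exons counted, so this order depends on it. In mean CPM these 3 had 3.12, 9.50 and 7.66, above NDUFA3 at 2.26 and ATP5I at 2.88. Across the 77 members, the level per kb was lower where the GC content of the transcript was higher (Spearman's rho = -0.60, Pearson's r = -0.31, n = 77 genes that share the same libraries).

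**Figure D1:**
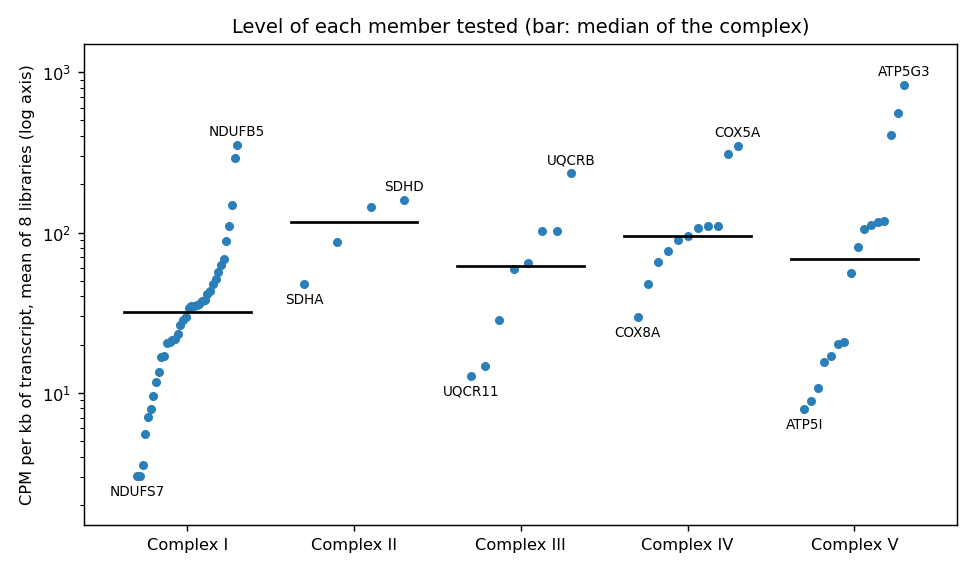
Level of each of the 77 members tested, in CPM per kb of transcript on a log axis, as the mean of 8 libraries and ordered within its complex. Bars mark the complex medians, from 31.9 in complex I to 115.5 in complex II, and the lowest and highest member of each complex is named.

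The isoform pairs of complex IV were almost entirely of the ubiquitous kind. COX4I2, a lung isoform of subunit 4, had 1 of 6042 reads of the COX4I1 and COX4I2 pair (0.0166%, 95% Wilson interval 0.00292% to 0.0937%). The heart and muscle isoform COX6A2 had 2 of 3528 reads of its pair, and the testis isoform COX6B2 had 2 of 4125. COX7A1, another heart and muscle isoform, had 0 of 4161 reads, which allows a share of up to 0.0721%, and the testis isoform COX7B2 had 0 of 5422, which allows up to 0.0553%. The testis isoform COX8C was the exception, with 22 of 1243 reads (1.77%, 1.17% to 2.67%). Its share was 5.22% and 4.64% in the 24 h libraries and 0% to 2.17% in the other 6, and it did not pass the filter, so this was not tested. These intervals and limits cover counting error only.

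The c ring of the ATP synthase, which turns as protons pass, is encoded by 3 genes whose mature proteins are the same. ATP5G3 took 96.2% of their assigned reads over all libraries (96.1% to 96.4%), ATP5G2 took 2.21% and ATP5G1 took 1.56%. The number of processed pseudogenes listed was 0 for ATP5G3, 3 for ATP5G2 and 7 for ATP5G1. Reads without a unique place, 4.98% to 5.99% of each table, were left out. Whether ATP5G1 and ATP5G2 lost more reads in this way than ATP5G3 was not tested. The intervals cover counting error only, so the shares of the transcripts themselves are uncertain. ATP5G2 reached 3.59% (3.21% to 4.02%) in replicate 1 at 3 days and lay between 1.61% and 2.39% in the other 7 libraries. ATP5G1 was at 0.722% (0.569% to 0.916%) in replicate 1 at 7 days and between 1.31% and 2.13% elsewhere. Both departures were in the libraries that stand apart, and the replicate 2 libraries of the same times gave 2.07% and 1.53% for those genes.

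At 24 h of exposure the members were centred near control, and single members lay on either side. The median log2 fold change was -0.04 over the 77 members and 0.00 over all 12536 genes tested, with 32 members above 0 and 45 below. By complex it was -0.05 in complex I, -0.03 in complex II, 0.00 in complex III, 0.01 in complex IV and -0.14 in complex V. edgeR's quasi-likelihood test with Benjamini-Hochberg adjustment called 0 of 77 members, and 0% of all genes were called in this comparison. DESeq2 and limma-voom called 0 as well, and the unadjusted p of edgeR was under 0.05 for 0 members and for 0.175% of all genes. In bulk RNA, fewer cells of a kind and less RNA per cell cannot be told apart.

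Values of the 2 control libraries and the 2 libraries at 24 h did not overlap for 18 members on the lower side and 6 on the higher side, where 12.5% and 11.4% of all genes did so. ATP5I, a small membrane subunit of the ATP synthase, had 3.34 and 3.17 CPM in control and 1.61 and 1.86 CPM at 24 h. Both 24 h libraries were below both controls, and the log2 fold change was -0.90 ± 0.43 (SE; edgeR's quasi-likelihood test, adjusted p = 1). ATP5J2, another membrane subunit and one of the uncertain genes, stood at 4.04 and 3.48 CPM in control against 2.61 and 2.88. ATP5D, the delta subunit, had a difference of -0.36 ± 0.55. In complex V, 12 of 16 members were below 0 and 5 had libraries that did not overlap on the lower side, against 0 on the higher side. ATP5S, which is no subunit, is in both counts, and ATP5SL, also no subunit, is among the 12.

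In complex I the members lower in both 24 h libraries were NDUFA10, NDUFA12, NDUFAB1, NDUFB7, NDUFB8, NDUFB10, NDUFS5 and NDUFS8. NDUFB10, of the distal membrane arm, had 20.1 and 17.7 CPM in control and 13.2 and 15.2 CPM at 24 h (log2 fold change -0.42 ± 0.31). NDUFA12, an accessory subunit of the NADH-binding module, had 145.0 and 121 CPM against 78.0 and 108 (-0.52 ± 0.47). NDUFB5 and NDUFC1 were the pair of complex I members higher in both, at 0.21 ± 0.20 and 0.21 ± 0.21. COX7A2, a small subunit of complex IV, was also higher, with 37.7 and 39.3 CPM in control and 47.6 and 49.5 CPM at 24 h. SDHC, an anchor that holds complex II in the membrane, had 62.8 and 52.1 CPM against 65.8 and 69.6. None of these differences passed the adjusted threshold.

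The 24 h libraries also differed from each other. Replicate 1 lay below both controls for 44 of the 77 members and above both for 7, while replicate 2 lay below both for 18 and above both for 34. The median member was at -0.19 in replicate 1 and 0.07 in replicate 2, as log2 CPM minus the control mean, and the controls themselves were at 0.11 and -0.11. The gap was widest in complex V, at -0.30 and 0.05, and in complex IV the values were 0.01 and 0.06. The gap between the replicates was larger than the group difference. Over all genes tested the medians of the 24 h libraries were -0.00 and 0.00. How many of all genes lay above or below both controls was not counted.

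At 3 days the members of all 5 complexes lay above control on average. The median log2 fold change was 0.41 against 0.01 over all genes tested, and 74 of 77 members were above 0, where 51.2% of all genes were. It was 0.42 in complex I, 0.36 in complex II, 0.37 in complex III, 0.48 in complex IV and 0.43 in complex V. The test called 0 members, and 0% of all genes (edgeR's quasi-likelihood test, Benjamini-Hochberg adjusted; DESeq2 0 and limma-voom 0). An unadjusted p under 0.05 was reached by 2 members, both higher, and by 5.29% of all genes (2.15% on the higher side). Control and 3 day libraries did not overlap for 21 members on the higher side and 1 on the lower, against 16.7% and 17.2% of all genes.

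At 7 days the values were close to those at 3 days. The median was 0.39 against 0.00 over all genes, with 69 of 77 members above 0 (50.1% of all genes), and by complex it was 0.31, 0.38, 0.46, 0.50 and 0.47 from I to V. The same test called 0 members and 0% of all genes, DESeq2 and limma-voom called 0, and 1 member had an unadjusted p under 0.05, on the higher side, against 4.94% of all genes (1.85% on that side). Libraries did not overlap for 25 members on the higher side and 2 on the lower (16.6% and 17.9% of all genes). The comparisons of 24 h, 3 days and 7 days share the control libraries. For 5 members both 24 h libraries were below both controls and both 7 day libraries above them (which held for 1.72% of all genes): ATP5G2, COX5A, NDUFA10, NDUFS5 and SDHA. Compared directly, 7 days and 3 days differed by a median of -0.02, with 0 members called (0% of all genes), 0 by DESeq2 and limma-voom, and 0 with an unadjusted p under 0.05 (0.247% of all genes). On the lower side 4 members did not overlap, all in complex I (NDUFA3, NDUFB1, NDUFC1 and NDUFS7), and 0 on the higher side, against 6.41% and 5.24% of all genes.

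The averages at 3 and 7 days came from 1 library of each pair. Replicate 1 at 3 days lay above both controls for 71 of 77 members and replicate 1 at 7 days for 69. Replicate 2 lay above both controls for 24 members at 3 days and 25 at 7 days, and below both for 21 and 16. These counts were not made over all genes, whose medians in the late libraries ran from -0.02 to 0.00 relative to control. The median member was at 0.73 and 0.05 in replicates 1 and 2 at 3 days, and at 0.67 and 0.05 at 7 days. The same held in every complex: replicate 1 medians were 0.59 to 0.83 and replicate 2 medians -0.02 to 0.09 over the 5 complexes and both times.

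**Figure D2:**
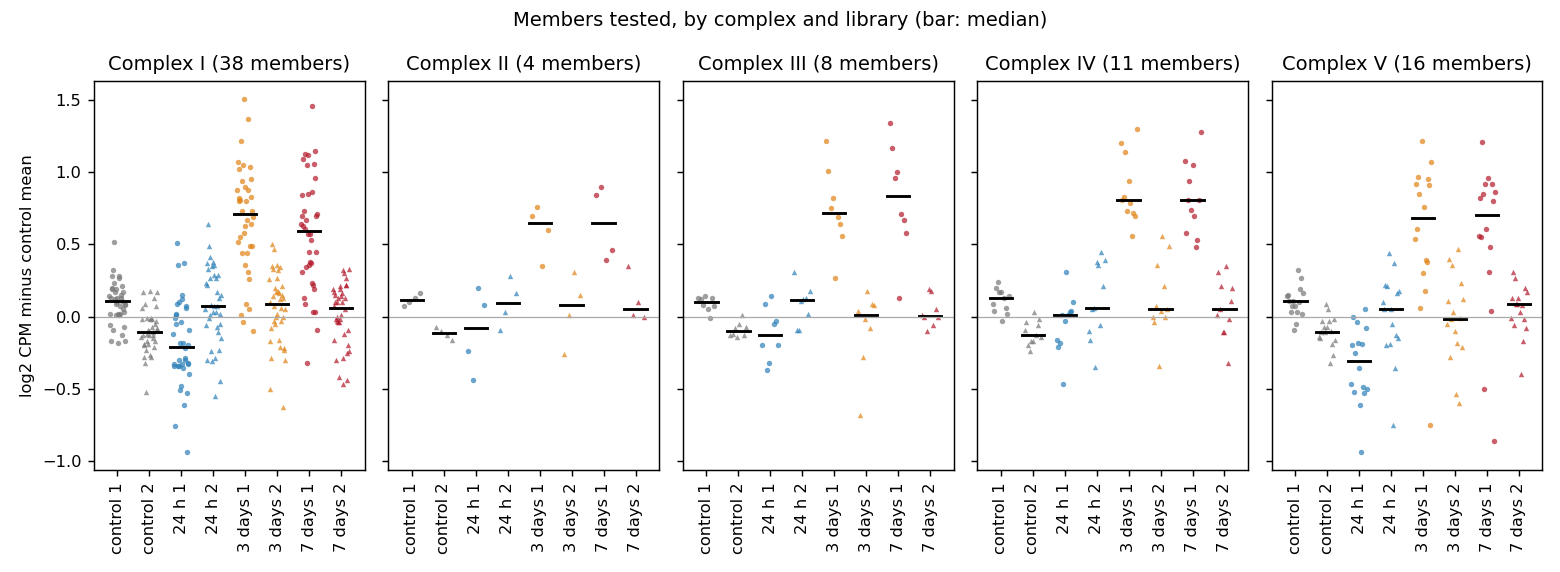
Log2 CPM of each tested member minus its mean in the 2 control libraries, by complex and library, with circles for replicate 1, triangles for replicate 2 and bars for medians. In every complex the replicate 1 libraries at 3 and 7 days lie highest, with medians from 0.59 to 0.83, and the replicate 2 libraries have medians from -0.02 to 0.09.

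The gap between the late replicates had a like pattern at both times. Replicate 1 exceeded replicate 2 in 69 of 77 members at 3 days, by a median of 0.69 on the log2 scale, and in 71 at 7 days, by 0.60. By complex the median gap at 3 days was 0.61, 0.60, 0.80, 0.78 and 0.75 from I to V, and at 7 days 0.54, 0.47, 0.79, 0.76 and 0.59. Member by member, the gap at 3 days and at 7 days had Pearson's r = 0.82 and Spearman's rho = 0.79 (n = 77 genes from the same 4 libraries), and over all genes r was 0.81. The replicate 1 libraries of 3 and 7 days were the 2 highest of the 8 for 63 members: 29 of 38 in complex I, 4 of 4 in complex II, 7 of 8 in complex III, 11 of 11 in complex IV and 12 of 16 in complex V. The 14 others were NDUFA3, NDUFA5, NDUFB1, NDUFB5, NDUFC1, NDUFS1, NDUFS4, NDUFS7, NDUFV3, UQCRC2, ATP5G1, ATP5J, ATP5J2 and ATP5S. The counts of 69, 71 and 63 members were not made over all genes, so no such share stands beside them.

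**Figure D3:**
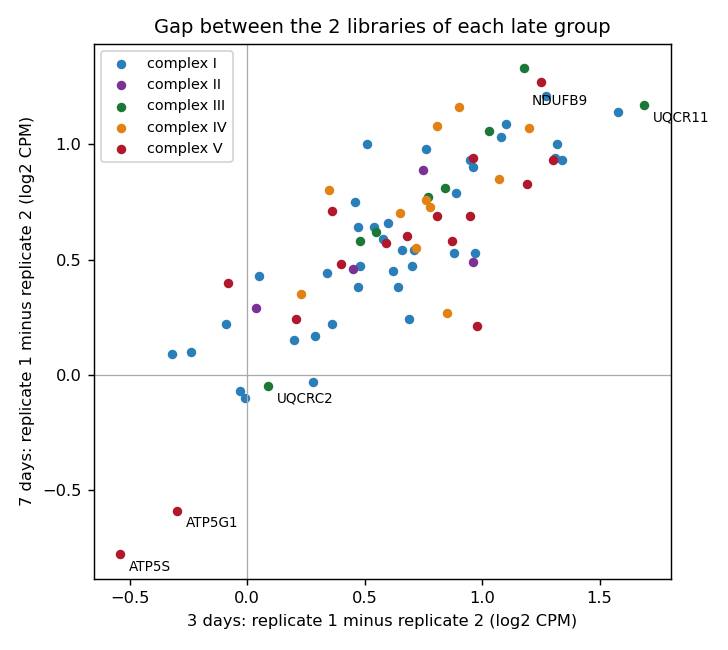
Replicate 1 minus replicate 2 in log2 CPM at 3 days (x axis) and at 7 days (y axis) for each of the 77 members, coloured by complex. Most points lie to the upper right, UQCR11 has the widest gap at 3 days (1.69), and ATP5S lies at the lower left (-0.54 and -0.78).

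Transcript length moved with this gap among genes in general. For genes outside the set with transcripts under 1000 bases, the median in the late replicate 1 libraries was 0.39 and 0.34 above control, against 0.03 and 0.02 in replicate 2. For those of 2500 bases or more it was -0.14 and -0.11, against -0.01 and 0.00. Of the 77 members, 52 have a transcript under 1000 bases, with medians of 0.75 and 0.70, and the other 25 had 0.69 and 0.56. With a trend on transcript length and GC content removed over all genes, the members stood at 0.48 and 0.41 in the replicate 1 libraries and at 0.05 and 0.05 in replicate 2. After that step complex III was at 0.61 and 0.82 in replicate 1 and complex I at 0.41 and 0.33. Among the members themselves the gap had little relation to length (Spearman's rho = -0.01 at 3 days and -0.15 at 7 days, n = 77) and a weak one to GC content (0.35 and 0.25). The part of length, GC content or library preparation in the gap was not tested further.

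Taking 3 and 7 days together against control and 24 h gave 4 libraries on each side and the tightest standard errors. The median log2 fold change was 0.44 over the members and 0.01 over all genes, with 72 of 77 members above 0 (50.5% of all genes). It was 0.37, 0.40, 0.46, 0.51 and 0.48 from complex I to V. edgeR's quasi-likelihood test with Benjamini-Hochberg adjustment called 0 members and 0.00798% of all genes, and DESeq2 and limma-voom called 0 members. Other settings changed this count. A fit with a term for the replicate number, in which the numbers at 24 h were exchanged (chosen after seeing the data), called 7 members, all higher (NDUFS5, ATP5L, ATP5SL, COX6A1, ATP5C1, UQCRC1 and NDUFB6), where it called 8.78% of all genes. With no filter on low counts NDUFS5 alone was called, against 2.68% of all genes. An unadjusted p under 0.05 was reached by 19 members, all higher, where 6.94% of all genes were higher and 7.24% lower at that level. With replicate 1 at 3 days or replicate 1 at 7 days left out this count was 0, as it was without control replicate 2 or 24 h replicate 1. Without replicate 1 at both times, the medians were 0.06, 0.1, 0.01, 0.07 and 0.13 from complex I to V.

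**Figure D4:**
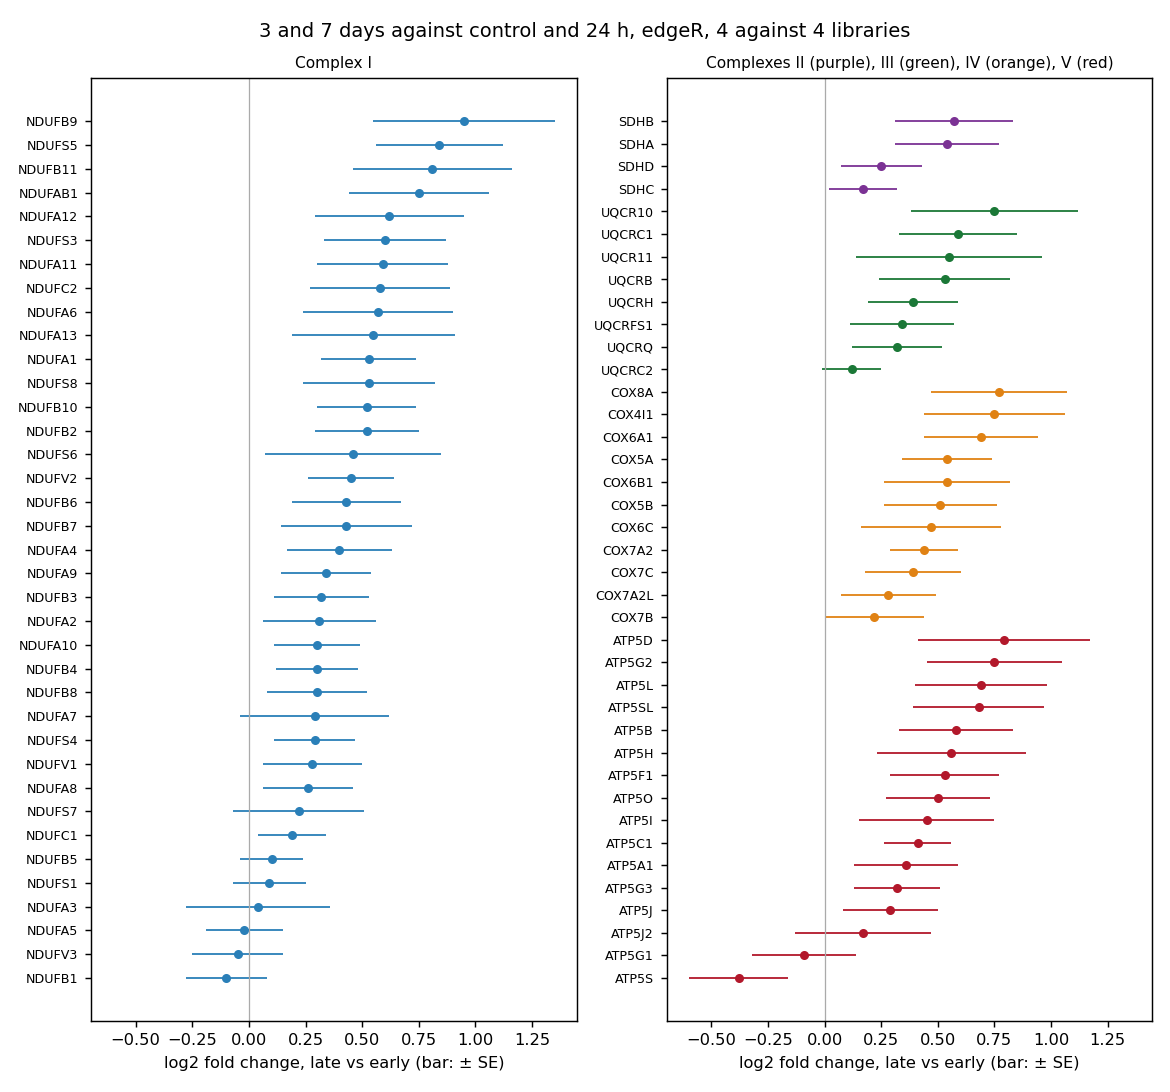
Log2 fold change of the tested members, with 1 member of complex I left out, 3 and 7 days against control and 24 h (4 against 4 libraries), with bars of 1 standard error from edgeR. Values run from -0.38 for ATP5S to 0.95 for NDUFB9, and all but 5 of those drawn lie above 0.

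The 4 late and 4 early libraries were fully apart for 3 members, all higher (5.93% of all genes), and for 0 on the lower side (7.43%). These were ATP5C1, NDUFA1 and NDUFS4. When only the replicate 2 libraries stood for the late times, 4 members lay above all early libraries (ATP5C1, NDUFA1, NDUFS4 and UQCRC2) and 1 below (UQCRFS1), against 14.5% of all genes on either side.

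Complex I has a core of nuclear-encoded subunits that carry electrons from NADH to ubiquinone, and those described here differed in how many of the late libraries lay above the early range. NDUFV2, an iron-sulphur subunit beside the NADH site, had 121 and 109 CPM in control, 107.5 and 127 at 24 h, 185.0 and 118 at 3 days, and 187.5 and 144 at 7 days. Both 7 day libraries were above every early library, replicate 2 at 3 days was within the early range, and the log2 fold change was 0.45 ± 0.19 (edgeR's quasi-likelihood test, adjusted p = 0.345). NDUFS3, of the ubiquinone-binding module, had 21.6 and 16.1 CPM in control and 19.5 and 22.8 at 24 h. It then had 38.5 and 20.7 CPM at 3 days and 39.2 and 22.5 at 7 days, so that replicate 2 stayed within the early range.

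NDUFS1, the largest iron-sulphur subunit and the core member with the highest level per kb after NDUFV2, was flat. It had 229.6 and 187 CPM in control, 168 and 233 at 24 h, 214.5 and 216 at 3 days, and 211.5 and 226 at 7 days. All 4 late libraries fell inside the early range, with a log2 fold change of 0.09 ± 0.16. The flavin-bearing NDUFV1 was at 0.28 ± 0.22, NDUFS7 at 0.22 ± 0.29 and NDUFS8 at 0.53 ± 0.29. NDUFS7 had 2.11 to 5.35 CPM, so its counts were among the lowest.

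The accessory subunits of complex I gave both ends of the range. NDUFB9 had the largest difference of all members, with 19.6 and 17.7 CPM in control, 12.2 and 22.5 at 24 h, 48.5 and 16.1 at 3 days, and 51.5 and 23.3 at 7 days (0.95 ± 0.40). The 2 high values were the late replicate 1 libraries, and replicate 2 at 3 days was below both controls. NDUFS5, of the proximal membrane arm, had 31.1 and 24.7 CPM in control, 19.1 and 23.5 at 24 h, 53.8 and 27.8 at 3 days, and 61.6 and 32.4 at 7 days. It had the smallest p of all members in this comparison (0.84 ± 0.28; edgeR's quasi-likelihood test, adjusted p = 0.299). NDUFAB1, the mitochondrial acyl carrier protein, was at 0.75 ± 0.31 and NDUFB11 at 0.81 ± 0.35.

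NDUFA1, a small proximal arm subunit encoded on the X chromosome, was higher in all 4 late libraries. It had 14.8 and 12.2 CPM in control, 12.4 and 13.9 at 24 h, 24.8 and 16.1 at 3 days, and 21.0 and 15.3 at 7 days (0.53 ± 0.21, adjusted p = 0.331 by edgeR's quasi-likelihood test). NDUFS4, an accessory subunit next to the NADH module, was also above the early range in all 4, with 12.04 to 14.5 CPM early and 15.1 to 18.6 CPM late (0.29 ± 0.18). At the other end NDUFB1 was at -0.10 ± 0.18, NDUFV3 at -0.05 ± 0.20 and NDUFA5 at -0.02 ± 0.17. NDUFA5 had 51.1 to 77.6 CPM in the early libraries and 54.4 to 68.4 in the late ones. By module, the median was 0.53 over 9 proximal arm members, 0.43 over 11 distal arm members, 0.31 over 8 of the ubiquinone module and 0.30 over 8 of the NADH module. Without replicate 1 at 3 and 7 days the same medians were 0.08, 0.12, 0.00 and -0.07. The other 2 members were NDUFAB1 and NDUFA4, and NDUFA4 was at 0.40.

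Complex II has no mitochondrially encoded subunit, and late against early the fold changes of its catalytic pair were larger than those of its anchor pair. SDHA, the flavoprotein, had 90.8 and 82.0 CPM in control, 72.9 and 81.0 at 24 h, 140.2 and 72.2 at 3 days, and 155 and 110.4 at 7 days (0.54 ± 0.23; edgeR's quasi-likelihood test, adjusted p = 0.35). Both 7 day libraries were above both controls, whereas replicate 2 at 3 days was below them. SDHB, the iron-sulphur subunit, had 92.2 and 79.7 CPM in control, 63.0 and 87.4 at 24 h, 145 and 86.5 at 3 days, and 160.1 and 86.1 at 7 days (0.57 ± 0.26). The anchors SDHC and SDHD were at 0.17 ± 0.15 and 0.25 ± 0.18. Against control alone the medians of the catalytic and anchor pairs were -0.18 and 0.18 at 24 h, 0.36 and 0.36 at 3 days, and 0.57 and 0.24 at 7 days. Without replicate 1 at 3 and 7 days the late against early medians were 0.12 and 0.05. The difference between the pairs was not tested.

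In complex III the large core protein UQCRC1 had 116 and 95.2 CPM in control, 84.1 and 113 at 24 h, 185 and 103 at 3 days, and 209.5 and 120.1 at 7 days (0.59 ± 0.26; edgeR's quasi-likelihood test, adjusted p = 0.351). Its partner UQCRC2, which forms the same core, had 136 and 127 CPM in control, 145 and 143 at 24 h, 159 and 149 at 3 days, and 144 and 149 at 7 days (0.12 ± 0.13). UQCRC2 was thus within 127 and 159 CPM in every library, without the high late replicate 1 values of UQCRC1. UQCRFS1, the Rieske iron-sulphur protein, had 138 and 80.7 CPM at 3 days and 139 and 82.1 at 7 days against 82.4 to 93.4 in the early libraries. Replicate 2 was below all early libraries and replicate 1 above them.

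The small subunits of complex III included the widest replicate gaps. UQCR11 had 8.43 and 7.06 CPM in control, 8.24 and 7.25 at 24 h, 15.7 and 4.73 at 3 days, and 17.6 and 7.74 at 7 days. At 3 days its libraries lay on opposite sides of the controls. UQCR10 was at 0.75 ± 0.37, UQCRB, which helps bind ubiquinone, at 0.53 ± 0.29, UQCRH, the hinge protein beside cytochrome c1, at 0.39 ± 0.20, and UQCRQ at 0.32 ± 0.20. UQCRHL, an intronless copy of UQCRH, had 4 reads in all.

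All 11 tested members of complex IV were above 0 in the late comparison, from 0.22 to 0.77, where 50.5% of all genes were above 0. Without replicate 1 at 3 and 7 days, 7 of the 10 ubiquitous subunits were above 0, with a median of 0.08. The supercomplex factor COX7A2L was then at -0.04. COX4I1, the subunit that binds ATP as a regulator, had 62.5 and 55.0 CPM in control, 52.5 and 54.7 at 24 h, 135 and 58.5 at 3 days, and 124 and 58.9 at 7 days (0.75 ± 0.31; edgeR's quasi-likelihood test, adjusted p = 0.344). Replicate 2 was level with control at both times, and replicate 1 was above every early library. COX8A, with the GABP letters in its promoter window, had 11.2 and 9.21 CPM in control, 10.96 and 13.4 at 24 h, 25.3 and 14.4 at 3 days, and 24.96 and 11.8 at 7 days (0.77 ± 0.30, adjusted p = 0.318). COX6A1, with the same letters, had 38.7 and 27.6 CPM in control, 33.0 and 34.03 at 24 h, 72.4 and 41.9 at 3 days, and 62.8 and 37.99 at 7 days (0.69 ± 0.25, adjusted p = 0.311). COX5B, the zinc-binding subunit, which has the GABP letters in its window as well, was at 0.51 ± 0.25 and COX5A at 0.54 ± 0.20. The promoters of COX4I1 and COX6B1 hold these letters too. Against control, COX6B1 was at 0.28 ± 0.40 at 3 days and 0.37 ± 0.40 at 7 days.

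COX7A2 had the smallest unadjusted p of all members at 3 days and at 7 days. It had 37.7 and 39.3 CPM in control, 47.6 and 49.5 at 24 h, 66.9 and 56.7 at 3 days, and 62.5 and 49.2 at 7 days. All 6 libraries after control were above both controls, and replicate 2 at 7 days was level with 24 h. The log2 fold change against control was 0.68 ± 0.22 at 3 days and 0.54 ± 0.22 at 7 days, with adjusted p = 0.843 and 0.851 in edgeR's quasi-likelihood test. Its replicate gap, 0.23 and 0.35, was smaller than the median gap of complex IV. In a joint test over the 4 groups COX7A2 again had the smallest p of the members (0.0642), and 3.56% of all genes had a p under 0.05 in that test. COX7A2L, a related protein that joins complexes III and IV into supercomplexes, was at 0.28 ± 0.21, and COX7B at 0.22 ± 0.22.

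In complex V the gamma subunit was the one member whose late and early libraries were fully apart. ATP5C1, the gamma subunit that turns inside the head and carries the NRF1 element in its window, had 117 and 101 CPM in control, 109 and 126 at 24 h, 166 and 144 at 3 days, and 159 and 135 at 7 days. All 4 late libraries were above all 4 early ones, as was so for 5.93% of all genes. The log2 fold change was 0.41 ± 0.15 (edgeR's quasi-likelihood test, adjusted p = 0.311). Against control alone it was 0.51 ± 0.21 at 3 days (adjusted p = 0.843 by the same test). ATP5B had 931.5 and 753 CPM in control, 728 and 867 at 24 h, 1586 and 906 at 3 days, and 1479 and 919 at 7 days (0.58 ± 0.25). Its replicate 2 values lay inside the range of the early libraries. ATP5A1, which had 1136 and 756 CPM at 3 days and 1157 and 776 at 7 days, was at 0.36 ± 0.23, and ATP5D at 0.79 ± 0.38.

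Of the c-ring genes, ATP5G2 was at 0.75 ± 0.30, ATP5G3 at 0.32 ± 0.19 and ATP5G1 at -0.09 ± 0.23. The stalk subunits ATP5F1, ATP5H, ATP5J and ATP5O had a median of 0.52, and 0.14 without replicate 1 at 3 and 7 days. Over the membrane subunits ATP5I, ATP5J2 and ATP5L the median was 0.45 against both early groups and 0.01 and -0.01 against control alone at 3 and 7 days, and each of the 3 had its lowest group mean at 24 h. Without the late replicate 1 libraries their late against early median was 0.14. ATP5S went the other way. It had 26.5 and 25.8 CPM in control, 24.7 and 23.5 at 24 h, 15.5 and 22.7 at 3 days, and 14.4 and 24.8 at 7 days (-0.38 ± 0.22; edgeR's quasi-likelihood test, adjusted p = 0.441). It was lowest in the same replicate 1 libraries in which most other members were highest. ATP5SL, also no subunit, was at 0.68 ± 0.29.

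**Figure D5:**
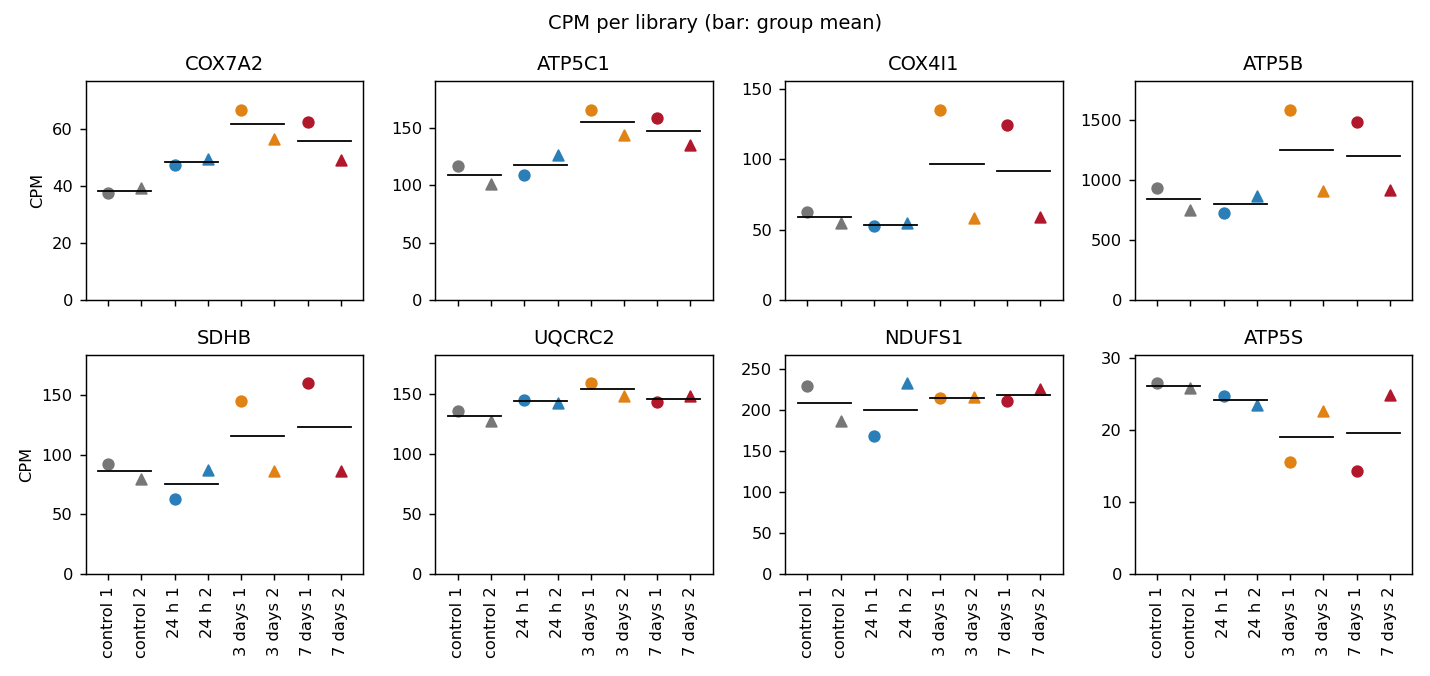
CPM of 8 members in each library, with circles for replicate 1, triangles for replicate 2 and bars for group means. COX7A2 and ATP5C1 are above both controls in all late libraries, COX4I1, ATP5B and SDHB are high in the late replicate 1 libraries and within the early range in replicate 2, UQCRC2 and NDUFS1 are level, and ATP5S is lowest in the late replicate 1 libraries.

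Late against early, lists of tested genes outside the symbol rule that serve the same pathway had lower medians than the 5 complexes. These values were not tested against the complexes. Without the late replicate 1 libraries this order did not hold, as the medians given below for each list show. Over 45 tested assembly factors, the median late against early difference was 0.13, with 31 above 0 and 14 below, where 50.5% of all genes were above 0. Of the 45, 2 had an unadjusted p under 0.05, against 14.2% of all genes, and 0 were called. The 2 were PET100, which helps build complex IV (0.80 ± 0.28), and TTC19, a complex III factor (0.34 ± 0.14). TTC19 had 47.0 to 51.1 CPM in the early libraries and 59.3 to 65.2 in the late ones, so both replicates were higher. In the late replicate 1 libraries the median assembly factor was at 0.29 and 0.24, against 0.73 and 0.67 for the subunit set, and without those libraries the late against early median of the factors was 0.03.

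The 14 TCA cycle enzymes had a median of 0.31, with 11 above 0, 2 with an unadjusted p under 0.05 and 0 called (50.5%, 14.2% and 0.00798% of all genes). Relative to control their median was 0.38 and 0.39 in the late replicate 1 libraries against 0.08 and 0.17 in replicate 2, and without replicate 1 at both times the late against early median was 0.11. IDH2, the mitochondrial NADP-dependent isocitrate dehydrogenase, had 56.0 and 62.4 CPM in control, 54.9 and 61.8 at 24 h, 98.3 and 77.3 at 3 days, and 101 and 109 at 7 days (0.71 ± 0.15; edgeR's quasi-likelihood test, adjusted p = 0.165). All 4 late libraries were above all early ones, and at 7 days replicate 2 was the higher. MDH2, the malate dehydrogenase of the cycle, was at 0.52 ± 0.20. Cytochrome c, which carries electrons from complex III to IV, was at -0.19 ± 0.15 (CYCS), and its partner in complex III, cytochrome c1, at 0.13 ± 0.30 (CYC1). The median of these 2 genes was -0.03, and -0.29 without replicate 1 at 3 and 7 days.

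The 15 tested regulators of mitochondrial gene expression had a median of 0.08, with 8 above 0 and 7 below, 0 higher and 1 lower with an unadjusted p under 0.05, and 0 called. The median was 0.08 without the late replicate 1 libraries as well. The share of all genes at that p was 6.94% on the higher and 7.24% on the lower side. The lower gene was PPARGC1B, a coactivator of NRF1 and related factors, which was lower in all 4 late libraries, at 79.9 to 85.3 CPM against 105 to 117 CPM early (-0.43 ± 0.13; edgeR's quasi-likelihood test, adjusted p = 0.271). TFAM, which packages mitochondrial DNA, had 339 and 219 CPM at 3 days and 393 and 211 at 7 days, against 196 to 208 in the early libraries (0.52 ± 0.23). YY1 itself was at 0.37 ± 0.17. The 3 tested genes of the hypoxia list had a median of 0.06, and 0.24 without the late replicate 1 libraries, with LONP1, a protease that acts on subunit 4 of complex IV, at 0.37 ± 0.16.

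Subunits were also grouped by promoter letters. The median was 0.54 over 19 subunits with the GABP letters and 0.38 over 44 without, and 0.28 over 4 with the full NRF1 element against 0.45 over 59 without. With the YY1 letters it was 0.32 over 8 and without them 0.44 over 55. The Sp1 letters, no more frequent here than in all promoters, gave 0.50 over 37 with them and 0.36 over 26 without. For TGCGCA the medians were 0.46 over 19 and 0.42 over 44, and for the TATA letters 0.29 over 6 and 0.45 over 57. With replicate 1 at 3 and 7 days left out, the medians with and without the GABP letters were 0.08 and 0.06. They were 0.09 and 0.07 for the NRF1 element, and 0.06 and 0.07 for the YY1 letters. For the Sp1 letters they were 0.08 and 0.07, for TGCGCA 0.02 and 0.10, and for the TATA letters -0.01 and 0.08. These are descriptions over genes measured in the same libraries, and the differences were not tested.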

How the data were processed

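RNA of 8 libraries (4 groups of 2) was measured. Per the labels' protocols, mRNA was selected on poly-T beads and sequenced as paired reads. The authors deposited whole-number read counts per gene symbol, 1 table per library, and no replicates were pooled. Per the submitters' processing notes, the tools included Bowtie2, Trim Galore, R 3.2.3, SAMtools and DESeq2 1.8.1, and the builds were hg19 and GRCh37. Which program counted the reads, on which strand and with which annotation is not given in the sources used here, so reads of overlapping, antisense or near-identical genes may be split or unassigned. The 5 entries per table that name no gene (42.6% to 57.5% of reads) were left out.

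The members and the lists were chosen with earlier results of these data known. Genes were kept by the default filter of edgeR 4.0.16 (minimum count 10, minimum total 15), which left 12536 genes. Libraries were TMM-scaled, and the quasi-likelihood test used all 8 libraries together, 1 coefficient for each group, without covariates. Residual degrees of freedom were 4, prior degrees 4.09 and the common biological coefficient of variation 0.276. For the 5 comparisons and a joint test of all groups, Benjamini-Hochberg adjustment ran over all genes tested, with calls under 0.05. Standard errors were derived from the F statistic. CPM are counts scaled by TMM-adjusted library size, and log2 CPM used a prior count of 2. Levels per kb used GENCODE 29 transcript lengths, found for 87 of 89 members. Shares of isoforms have 95% Wilson intervals. The limit for a count of 0 is 3 counts. The procedure was tested on simulated data in which no single library stood apart. That test therefore does not cover the setting of the late replicate 1 libraries.

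The named genes were the nuclear catalytic subunits, the isoform sets, up to 3 members per complex with the smallest p in each comparison, the extremes of each complex in the late against early comparison, and up to 3 genes per pathway list. A member of complex I that the rule names is counted in the sums but is not reported here by name. Others (among them NDUFS4, NDUFC1 and NDUFA3) were named after their values were seen. Alternatives were RLE and upper-quartile scaling, no filter and a stricter filter (50 counts in 2 libraries), DESeq2 1.42.0, limma-voom (limma 3.58.1), a fit of only the groups compared, removal of a loess trend (span 0.5) on transcript length and GC content, a block on the replicate number, and omission of each library in turn. A block with crossed numbers and a fit without replicate 1 at 3 and 7 days were added after seeing the data.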

Additional observations from a re-analysis of the deposited data

Results flagged for a closer look

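For 5 members both 24 h libraries lay below both controls and both 7 day libraries lay above them. The log2 fold changes at 24 h and at 7 days against control were -0.19 and 0.57 for the c-ring gene ATP5G2, and -0.19 and 0.45 for the complex IV subunit COX5A. They were -0.19 and 0.19 for NDUFA10 and -0.39 and 0.75 for NDUFS5, both accessory subunits of complex I, and -0.17 and 0.62 for the complex II flavoprotein SDHA. The same order, lower at 24 h and higher at 7 days, held for 1.72% of all genes tested. The difference between the 24 h and 7 day effects was not tested, both comparisons use the same controls, and none of the 10 values passed the adjusted threshold of edgeR's quasi-likelihood test.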

How the results depend on the processing

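Each complex median against control at 3 and 7 days depended on replicate 1 of that time. With 1 library left out in turn, the 3 day median ran from 0.08 to 0.70 in complex I, 0 to 0.71 in complex III, 0.05 to 0.80 in complex IV and -0.03 to 0.68 in complex V. The 7 day median ran from 0.05 to 0.66 in complex II, 0 to 0.85 in complex III, 0.03 to 0.82 in complex IV and 0.07 to 0.71 in complex V. The lowest of each came without replicate 1 of that time and the highest without replicate 2. At 24 h it ran from -0.23 (without 24 h replicate 2) to 0.06 (without 24 h replicate 1) in complex I and from -0.16 (without control replicate 2) to 0.14 (without control replicate 1) in complex IV. With replicate 1 of both late times left out, an alternative chosen after seeing the data, the medians were 0.06 (IV) and -0.02 (V) at 3 days, 0.05 (II), 0 (III), 0.04 (IV) and 0.07 (V) at 7 days, and 0.01 (III) and 0.07 (IV) late against early.

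The count of members with an unadjusted p under 0.05, late against early, was 19 in the reported fit, beside 14.2% of all genes. It was 0 without control replicate 2, 24 h replicate 1 or replicate 1 of either late time. Leaving out control replicate 1 gave 4, leaving out 24 h replicate 2 gave 5, and leaving out replicate 2 gave 43 at 3 days and 42 at 7 days. It was 20 with RLE and 9 with upper-quartile scaling, 33 with no filter, 10 with the strict filter, 24 with DESeq2 and 6 with limma-voom. The share of all genes at that p was not computed for these settings or for the fits with a library left out. Their counts therefore cannot be set against all genes. At an adjusted p under 0.05, 1 member was called late against early with no filter (NDUFS5, 0.84, adjusted p = 0.0482; 2.68% of all genes), and 0 with every other setting planned. With the strict filter 2 members, in place of 4, had 7 day and 3 day libraries that did not overlap. Fewer genes are tested there, and the share of all genes was not computed.

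The labels do not tie same-numbered libraries to a shared culture or day, and over all genes their deviations correlated at -0.60 between control and 24 h and 0.81 between 3 and 7 days, so the numbers were not taken as pairs. With the replicate number as a block, 0 members were called in each of the 5 comparisons and the complex medians late against early were 0.33 to 0.46. A block with crossed numbers, in which control 1 is matched with 24 h replicate 2, called 7 of 77 members late against early and 8.78% of all genes; the cause was not tested. With the trend on transcript length and GC content removed, the 3 day medians were 0.19 to 0.33 and the 7 day medians 0.17 to 0.37. Depth limits members such as NDUFS7 and ATP5I, at under 6 CPM in every library.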
